A study of Homo sapiens with 6 samples.

Results

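CHI3L1 and CHI3L2 are the chitinase-like genes examined here, 2 of the 25368 gene symbols in each of 2 tables of FPKM, which are fragment counts divided by the length of the exons and the size of the library. CHI3L2 was picked on measured values, as the largest difference of iCAFs+JNKi against iCAFs, and CHI3L1 belongs to the same family. That difference describes how the gene was selected and supports nothing. RNA-seq was done on MRC5, a fibroblast line from human embryonic lung, immortalized with hTERT by the study. In the JUN overexpression table, cells had been infected with adenovirus carrying an empty vector (the control), FLAG-tagged JUN WT or FLAG-tagged JUN AA, in which alanines replace the serines that JNK phosphorylates. In the JNKi table, MRC5 had no treatment, iCAFs were MRC5 kept for 7 days in conditioned medium of MDA-MB-231, a human breast cancer line, and iCAFs+JNKi were such cells given the JNK inhibitor at 1 µM for 48 h. The labels speak of a DMSO vehicle for iCAFs, without saying so for this library. Each of the 6 conditions has 1 library of 1 cell line, so no difference has a replicate check and no test was made. Values were compared only within a table.

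Chitinases of the GH18 family cleave chitin, a polymer of N-acetylglucosamine, through an acidic residue in a conserved motif. CHI3L1 and CHI3L2 keep the fold of these enzymes but lack the catalytic residue, and are secreted lectins that can bind such sugars without cutting them. CHI3L1 is made by macrophages, neutrophils, chondrocytes and synovial cells, and is known as a gene that responds to inflammation and tissue remodelling. CHI3L2 is best known from chondrocytes and synovial cells.

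To show what separates these genes from active chitinases, the coding stretch around the catalytic residue is given for CHIT1 (chitotriosidase) and CHIA (acidic chitinase), both active enzymes, and for both chitinase-like genes. Sequences were read from GRCh37, 5′ to 3′ on the coding strand, and capitals mark the codon aligned to the catalytic glutamate of CHIT1.
CHIT1, chr1:203192680-203192706, minus strand: gacggccttgaccttgactggGAGtac
CHIA, chr1:111857974-111858000, plus strand: gacgggctggactttgactggGAGtac
CHI3L1, chr1:203152811-203152837, minus strand: gatgggctggaccttgcctggCTCtac
CHI3L2, chr1:111777611-111777637, plus strand: gatggactggatgtaagctggATCtac
Both enzymes carry GAG, a glutamate codon. CHI3L1 has CTC, which encodes leucine, and CHI3L2 has ATC, which encodes isoleucine. The tryptophan codon before that place and the tyrosine codon after it are shared by all 4 genes, and each stretch lies within 1 exon. Over the whole coding sequence, 63.0% of 1136 aligned bases were identical between CHI3L1 and CHI3L2, and 65.6% of 1135 between CHI3L1 and CHIT1. The longest run shared without mismatch was 15 bases between CHI3L1 and CHI3L2, and 18 bases between CHI3L2 and either enzyme.

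The members lie far apart on chromosome 1 of GRCh37. CHI3L1 is on the minus strand from 203148059 to 203155832, and its canonical transcript has 10 exons and 1747 bases. CHI3L2 is on the plus strand from 111743393 to 111786062, and its canonical transcript starts at 111770335 and has 11 exons and 1416 bases. No other annotated gene shares exon bases with either canonical transcript. Each member has an active chitinase gene nearby, CHIT1 at 26123 bp from CHI3L1 and CHIA at 47411 bp from CHI3L2.

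CHI3L1 was a gene of low level in MRC5, and in each table a single library stood well below the others. In the JNKi table MRC5 had 3.29 FPKM, iCAFs 0.967 FPKM and iCAFs+JNKi 5.18 FPKM. The iCAF library was the lowest of these 3 and that of iCAFs+JNKi the highest. In the JUN overexpression table the control had 3.33 FPKM, JUN WT 3.69 FPKM and JUN AA 0.173 FPKM. The control and JUN WT were nearly level, and JUN AA was far below both.

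CHI3L2 was listed at 0 in MRC5 and in the empty vector control and was above 0 in the other 4 libraries. In the JNKi table MRC5 was listed at 0, iCAFs at 0.784 FPKM and iCAFs+JNKi at 21.8 FPKM. The library of iCAFs+JNKi was the only one of the 6 in which CHI3L2 passed 2 FPKM. In the JUN overexpression table the control was listed at 0, JUN WT at 0.880 FPKM and JUN AA at 1.28 FPKM. JUN AA was the higher of the JUN libraries for CHI3L2 and the lower for CHI3L1, but there is no spread by which to judge CHI3L2 values this close to 1 FPKM. In a table without counts an exact 0 may be a failed estimate, although none of 73 ribosomal protein genes was listed at 0 in any library. No fold change is given against a listed 0.

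**Figure D1:**
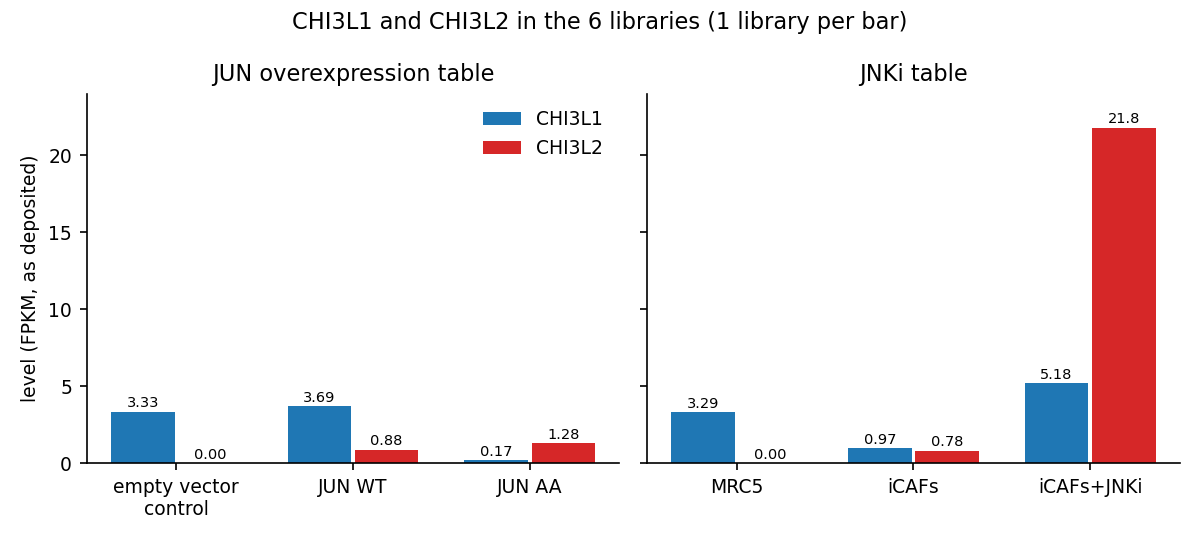
Level in FPKM of CHI3L1 (blue) and CHI3L2 (red) in the 3 libraries of each table, 1 library per bar and so without error bars. The tables were normalised apart from each other. CHI3L2 at 21.8 FPKM in iCAFs+JNKi is the tallest bar, and CHI3L1 is lowest in JUN AA (0.17 FPKM) and in iCAFs (0.97 FPKM).

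FPKM are scaled by exon length, so the levels of both members can be set beside each other within a library. CHI3L1 was the higher in MRC5, iCAFs, the control and JUN WT. In JUN WT its level in FPKM was 4.19 times that of CHI3L2, and in iCAFs 1.23 times. The order was the other way in iCAFs+JNKi, where CHI3L2 was at 4.20 times the FPKM of CHI3L1, and in JUN AA, where it was at 7.38 times. The JUN AA ratio rests on CHI3L1 at 0.173 FPKM, with no counts or spread by which to judge it. Among all gene symbols of a library, CHI3L2 in iCAFs+JNKi was above 88.4%. CHI3L1 was above 69.2% of them in iCAFs+JNKi and above 48.3% in JUN AA. These shares count the symbols listed at 0 as lying below, 9488 in iCAFs+JNKi and 9800 in JUN AA. In JUN AA, CHI3L1 thus stood low among the genes above 0.

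To place these differences among all genes, log2(FPKM + 1) differences were taken over genes whose mean in the 3 libraries of a table reached 1 FPKM. This left 11780 genes in the JNKi table and 10311 in the JUN overexpression table. The scale understates differences of low genes, and a difference of 1 or more is called 2-fold here. CHI3L1 passed the filter in both tables. CHI3L2 passed it in the JNKi table only, through the single library of iCAFs+JNKi. Comparisons within a table share libraries and are not independent of each other.

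The first question in the JNKi table was how medium from cancer cells changed the fibroblasts. In iCAFs against MRC5, CHI3L1 was 3.40-fold lower in FPKM, a log2(FPKM + 1) difference of -1.12, and 1.29% of the genes had a lower value than this. It was the only GH18 gene among the 2-fold differences of this comparison. Among all genes, 1.71% were 2-fold or more below MRC5 and 1.94% above it.

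The inhibitor was used to ask what depended on phosphorylation of JUN in iCAFs. JUN mRNA was itself 2.63-fold lower with the inhibitor, falling from 55.3 to 21.1 FPKM, a log2 difference of -1.35. Untreated cells stood at 57.1 FPKM. The libraries of iCAFs and iCAFs+JNKi thus differ in JUN mRNA as well as in JNK inhibition, and the part of each was not tested. Both members were at least 2-fold higher in iCAFs+JNKi than in iCAFs, where 2.25% of all genes were higher by that much and 1.97% lower. Higher genes were 53.3% of the 2-fold genes, and 64.0% after centring on the median gene. Because this comparison chose CHI3L2, the count of members is not read as a result. CHI3L1 was 5.36-fold higher in FPKM, with a log2(FPKM + 1) difference of 1.65, and 82 of 11780 genes had a larger one. CHI3L2 was 27.8-fold higher, with a log2 difference of 3.67 and no gene above it. The genes just outside the choice were SULF1, an extracellular sulfatase, at 3.39, and RGS5, a regulator of G-protein signalling, at 3.36.

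Set directly against untreated MRC5, iCAFs+JNKi had 1.58 times the CHI3L1 level, a log2 difference of 0.53, and 8.06% of genes had a larger one. CHI3L1 was below the 2-fold limit there, which 3.28% of all genes passed upwards and 3.53% downwards. The higher share of these 2-fold genes was 48.1%, against 59.3% with rescaled FPKM and 65.9% with centring. CHI3L2 was at 21.8 FPKM against a listed 0.

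JUN and JUN AA were overexpressed to ask what JUN does with and without its JNK sites. The control had 25.5 FPKM of JUN mRNA, JUN WT 4543 FPKM and JUN AA 291 FPKM, so the JUN libraries differ in the amount of JUN as well as in its sequence, and these cannot be told apart. In JUN WT against the control, CHI3L1 had a log2 difference of 0.11, beside a median of 0.15 over all genes, while 6.92% of genes were 2-fold or more above the control and 3.39% below it. With centring on the median gene the CHI3L1 value was -0.036, so its direction depends on the scaling, and the higher share of 2-fold genes was 45.5% in place of 67.1%. In JUN AA against the control, CHI3L1 was 19.2-fold lower in FPKM. This ratio rests on 0.173 FPKM in 1 library, with no counts or spread by which to judge it. The log2 difference was -1.89. Only 65 of 10311 genes had a lower value, while 3.77% of genes were 2-fold or more below the control and 5.29% above it. Set directly against JUN AA, JUN WT had a log2 difference of 2.0 for CHI3L1, and 6.65% of all genes were 2-fold or more above JUN AA and 5.61% below it. The higher share of these was 54.3%, against 82.9% with rescaled FPKM and 33.3% with centring. CHI3L2, which did not pass the filter in this table, had a log2 difference of -0.28 there. The FPKM sum was 613184 in JUN AA and 494603 in the control. The log2 difference of CHI3L1 in JUN AA was -2.59 once every library was scaled to 1000000 FPKM in all, which moved the median over all genes there to -0.29 and the higher share of 2-fold genes from 58.4% to 26.1%.

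The other 5 genes of the GH18 family list had no 2-fold difference or were not detected. CHIT1 and CHIA were listed at 0 in all 6 libraries. CHID1, which encodes a secreted chitinase domain protein, was the highest of the family in every library. It was between 23.2 and 27.1 FPKM in the JNKi table and between 31.6 and 41.6 FPKM in the JUN overexpression table. CTBS, a lysosomal enzyme that trims the chitobiose core of glycoproteins, shares exon bases with SPATA1, so that its reads may be divided. It was between 7.68 and 8.66 FPKM in the JNKi table and between 3.98 and 5.46 FPKM in the JUN overexpression table. OVGP1, an oviduct glycoprotein, was between 0.860 and 1.60 FPKM in the JNKi table and passed the filter there only. In the JUN overexpression table it was between 0.120 and 0.930 FPKM. CHID1, CTBS and OVGP1 had no 2-fold difference in any comparison in which they passed the filter, and their log2 differences in iCAFs+JNKi against iCAFs were -0.22, -0.13 and 0.27. No median of the list is given for that comparison, since it chose CHI3L2. In iCAFs against MRC5 the median was 0.023 over 5 genes, beside -0.061 over all genes, and the 5 include CHI3L2, which passed the filter through iCAFs+JNKi. In JUN AA against the control its median was -0.39 over 3 genes, beside -0.015 over all genes, and in JUN WT 0.11, beside 0.15.

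**Figure D2:**
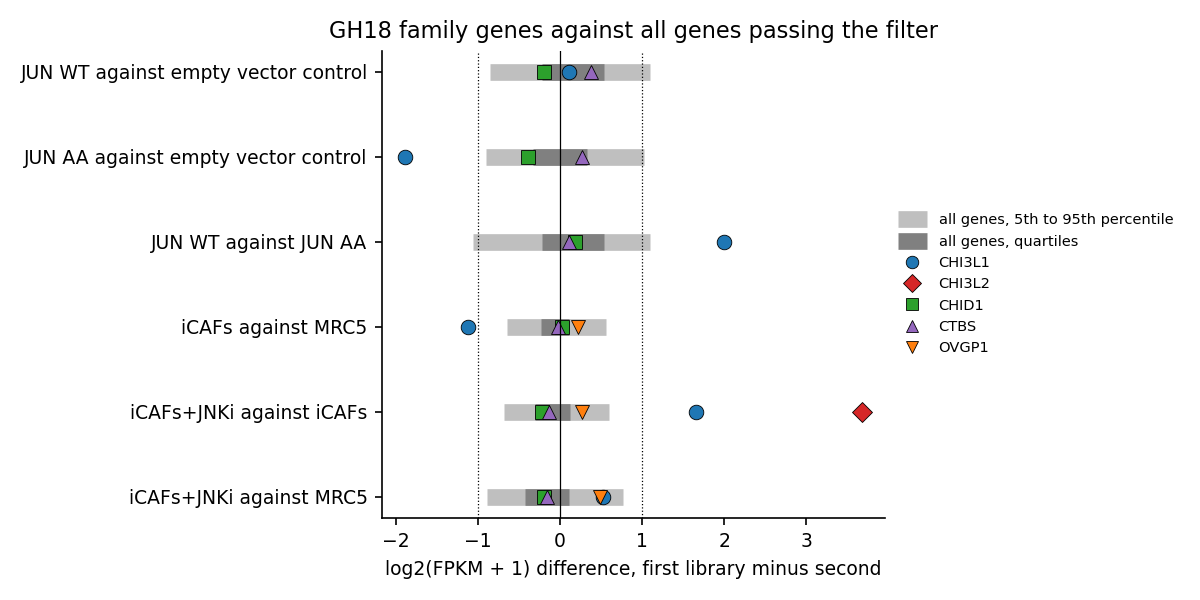
Differences in log2(FPKM + 1) of GH18 family genes (symbols) in the 6 comparisons, 1 library against 1, over the spread of all genes passing the filter (light bars, 5th to 95th percentile, and dark bars, quartiles). Dotted lines mark 2-fold. CHI3L1 lies outside the light bar in 4 comparisons, CHI3L2 is drawn only for iCAFs+JNKi against iCAFs because it was at 0 or below the filter elsewhere, and CHID1, CTBS and OVGP1 lie inside.

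CHI3L1 binds or signals through several surface and matrix proteins, of which 7 were listed. For IL13RA2, a receptor of CHI3L1 and IL-13, MRC5 had 5.27 FPKM, iCAFs 5.22 FPKM and iCAFs+JNKi 7.90 FPKM. In the JUN overexpression table the control had 1.03 FPKM of IL13RA2, JUN WT 5.57 FPKM and JUN AA 3.44 FPKM. It was the lowest in the control and was at least 2-fold higher in both JUN libraries. TMEM219, the partner of IL13RA2, was between 55.4 and 64.4 FPKM in the JNKi table. In the JUN overexpression table it was between 115 and 136 FPKM, and within neither table had it a 2-fold difference. CD44, a hyaluronan receptor, stood at 541 FPKM in iCAFs against 375 FPKM with the inhibitor. SDC1, a heparan sulfate proteoglycan, was at 30.4 FPKM in JUN WT against 13.7 FPKM in the control. AGER and PTGDR2 were under 1 FPKM in every library. In the JNKi table none of the 5 receptor genes passing the filter had a 2-fold difference in any of the 3 comparisons. The receptor list had a median of -0.086 for iCAFs+JNKi against iCAFs, beside -0.099 over all genes, and of -0.13 for iCAFs against MRC5, beside -0.061. In JUN WT against the control 2 of 5 were at least 2-fold higher, beside 6.92% of all genes, and the list median was 0.81, beside 0.15. That median was -0.033 over all 7 listed genes without the filter and 0.36 at a mean of at least 5 FPKM. In JUN AA against the control 1 of 5 was at least 2-fold higher, beside 5.29% of all genes, with a median of -0.012, beside -0.015.

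Interleukins, gp130 cytokines and NF-κB are known inducers of CHI3L1 in other cells, and 24 such genes were listed. In iCAFs against MRC5, 7 of the 18 genes passing the filter were at least 2-fold higher, beside 1.94% of all genes, and 1 was lower by as much, beside 1.71%. The list median was 0.50, beside -0.061 over all genes. Of the 7, the cytokine genes IL1A and IL1B were listed at 0 in MRC5 and passed the filter only through libraries in which they were high, so they had to differ. For IL1B, iCAFs had 194 FPKM and iCAFs+JNKi 25.9 FPKM. For IL6, MRC5 had 0.627 FPKM, iCAFs 129 FPKM and iCAFs+JNKi 16.4 FPKM. Within the JNKi table both cytokines were highest in the library in which CHI3L1 was lowest. Both were also higher in iCAFs+JNKi than in MRC5, as CHI3L1 was. In iCAFs+JNKi against iCAFs, 5 of 18 genes were at least 2-fold lower, beside 1.97% of all genes. They were IL1A, IL1B, IL6, LIF and NFKBIA, and 0 genes were higher by as much, beside 2.25%. IL1A passed the filter only through iCAFs, so it had to be lower with the inhibitor. The list median was -0.15, beside -0.099 over all genes. LIF, a gp130 cytokine, had the lowest log2 difference at -4.37, and IL1R1, an interleukin-1 receptor, the highest at 0.52. The IL4, IL13, OSM and IFNG genes were listed at 0 in all 6 libraries. TNF was listed at 0 in 5 libraries and at 0.0254 FPKM in JUN WT.

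In the JUN overexpression table the same list had 16 genes passing the filter. In JUN WT against the control, LIF and NFKB1 were at least 2-fold higher, beside 6.92% of all genes. CEBPB, a transcription factor of acute phase genes, was at least 2-fold lower, beside 3.39% of all genes. The list median was 0.14, beside 0.15 over all genes. In JUN AA against the control, LIF alone of the 16 was at least 2-fold higher, beside 5.29% of all genes. At least 2-fold lower were 0 genes, beside 3.77%, and the list median was -0.30, beside -0.015. RELB, a subunit of NF-κB, had the lowest log2 difference there, at -0.75. For IL6 the control had 0.805 FPKM, JUN WT 2.43 FPKM and JUN AA 0.251 FPKM, so IL6 was lowest in JUN AA, as CHI3L1 was. In JUN WT against JUN AA, IL6, RELB and NFKBIA were at least 2-fold higher, beside 6.65% of all genes. By as much, 0 genes of the list were lower, beside 5.61%, and the list median was 0.31, beside 0.18. STAT3, which carries gp130 signals, was between 20.2 and 26.2 FPKM in this table and between 27.2 and 34.7 FPKM in the JNKi table. It had no 2-fold difference within either.

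CHI3L1 is often grouped with acute phase proteins, which the liver and inflamed tissues secrete. Of 20 such genes, 5 passed the filter in the JNKi table. SAA1 and SAA2, serum amyloid genes of similar sequence between which reads may be divided, were listed at 0 in MRC5. SAA1 stood at 55.4 FPKM in iCAFs against 50.9 FPKM with the inhibitor, and SAA2 at 37.0 against 41.5 FPKM. C3, a complement component, had 1.18, 130 and 80.8 FPKM in MRC5, iCAFs and iCAFs+JNKi. These 3 genes were thus higher in both conditioned-medium libraries than in MRC5. SAA1 and SAA2 passed the filter only through those libraries, so their direction against MRC5 was fixed beforehand. PTX3, a long pentraxin, had 111, 62.5 and 9.56 FPKM in MRC5, iCAFs and iCAFs+JNKi. A2M, a protease inhibitor, had 20.5, 50.0 and 218 FPKM in the same order. Of the 5 genes, A2M alone was at least 2-fold higher in iCAFs+JNKi than in iCAFs, beside 2.25% of all genes. PTX3 alone was at least 2-fold lower, beside 1.97%. The list median was -0.12, beside -0.099 over all genes. A2M had 33.1 FPKM in the control, against 2.30 FPKM with JUN WT and 3.53 FPKM with JUN AA, and PTX3 was the only other gene of the list to pass the filter in that table.

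**Figure D3:**
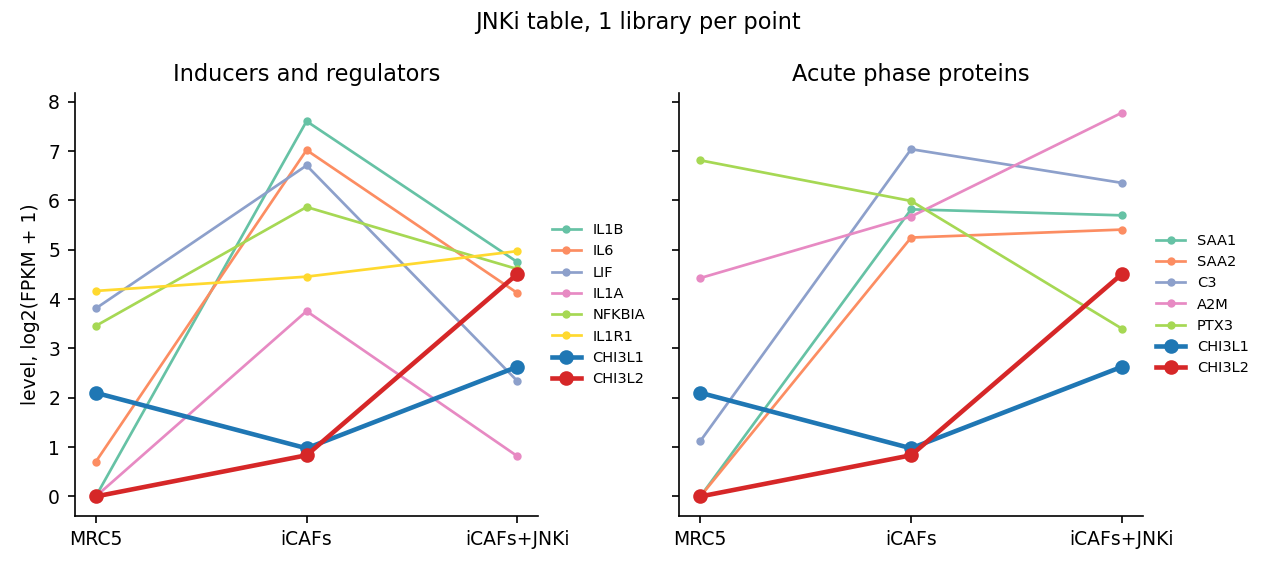
Levels as log2(FPKM + 1) in MRC5, iCAFs and iCAFs+JNKi, 1 library per point, with lines that only join the points of a gene. CHI3L1 (blue) and CHI3L2 (red) are drawn over other genes passing the filter. At the left are 6 of 18 inducer and regulator genes, among them all 5 that were at least 2-fold lower with the inhibitor. At the right are the 5 acute phase genes. IL1B, IL6 and LIF are highest in iCAFs, where CHI3L1 is lowest. IL1B and IL6 are also higher in iCAFs+JNKi than in MRC5, as CHI3L1 is. A2M and SAA2 are highest in iCAFs+JNKi, as both members are, while SAA1, C3 and PTX3 are not.

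In bulk libraries a change in which cells are present and a change in RNA per cell cannot be told apart, so markers of cells that could hold the members were read beside them. Of 10 macrophage markers, CD68, a lysosomal protein found in other cells too, was the only one above 1 FPKM in 5 of the 6 libraries, and LYZ was also above it, at 2.03 FPKM, in JUN AA. PTPRC, which marks all leukocytes, was at most at 0.0148 FPKM in any library. The summed level of the macrophage list lay between 38.7 FPKM (iCAFs+JNKi) and 48.9 FPKM (MRC5) in the JNKi table. In the other table the sum was 33.3 FPKM for the control, 86.4 FPKM for JUN WT and 33.4 FPKM for JUN AA. The epithelial markers CDH1, KRT5 and ESRP1 were listed at 0 in all 6 libraries, and KRT8 and KRT18 were the only epithelial markers of 9 above 2 FPKM. The 10 fibroblast markers were above 1 FPKM in every library. Their sums were 4040 to 6252 FPKM in the JNKi table and 4649 to 6263 FPKM in the other. In iCAFs+JNKi against iCAFs, 6 of these 10 were at least 2-fold higher, beside 2.25% of all genes, and 0 were lower by as much, beside 1.97%. The median of the 10 was 1.12, beside -0.099 over all genes, and COL3A1 had 46.4 FPKM in iCAFs against 296 FPKM with the inhibitor. In JUN WT against the control 0 fibroblast markers were at least 2-fold higher, beside 6.92% of all genes, and 4 were lower by as much, beside 3.39%. Their median was -0.75, beside 0.15 over all genes. In JUN AA against the control 1 fibroblast marker was at least 2-fold higher, beside 5.29% of all genes, and 3 were lower by as much, beside 3.77%. The median there was -0.45, beside -0.015. The part of these markers in the differences of the members was not tested.

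The genes most like CHI3L1 were found by the Euclidean distance between log2(FPKM + 1) differences in 4 comparisons over the 6 libraries, among 10020 genes passing the filter in both tables. APOE, an apolipoprotein, was nearest at a distance of 0.82. The control had 223 FPKM of APOE, JUN WT 247 FPKM and JUN AA 94.9 FPKM, while MRC5 had 22.7 FPKM, iCAFs 11.3 FPKM and iCAFs+JNKi 27.2 FPKM. NSG1, STAT2, INMT and FBLN5 followed at distances of 1.02 to 1.11. STAT2 carries interferon signals, and FBLN5 is an elastic fibre protein. All 5 were lower in JUN AA than in the control, by log2 differences of -1.22 to -2.0. They were higher in iCAFs+JNKi than in iCAFs, by 0.83 to 1.52. The 5 were chosen by these same differences, so their shared directions follow in large part from that choice and support nothing. In JUN WT against the control they split, with APOE and FBLN5 at 0.15 and 0.10 and the other 3 between -0.77 and -0.38. For CHI3L2 the nearest gene, NPR3, a natriuretic peptide receptor, lay at a distance of 1.91, with a log2 difference of 2.40 in iCAFs+JNKi against iCAFs. LMCD1, DNAJC25-GNG10, RGS2 and HYPK followed at 2.04 to 2.13, and DNAJC25-GNG10 is a readthrough gene that shares reads with its neighbours. Distances from CHI3L2 were larger than those from CHI3L1, but CHI3L2 was picked as the largest of all genes in one of the 4 differences, so its distance from other genes follows in large part from that choice. CHI3L2 itself was under the 1 FPKM mean in the JUN libraries' table, and its other 3 differences are against a listed 0 and depend on the pseudocount of 1.

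**Figure D4:**
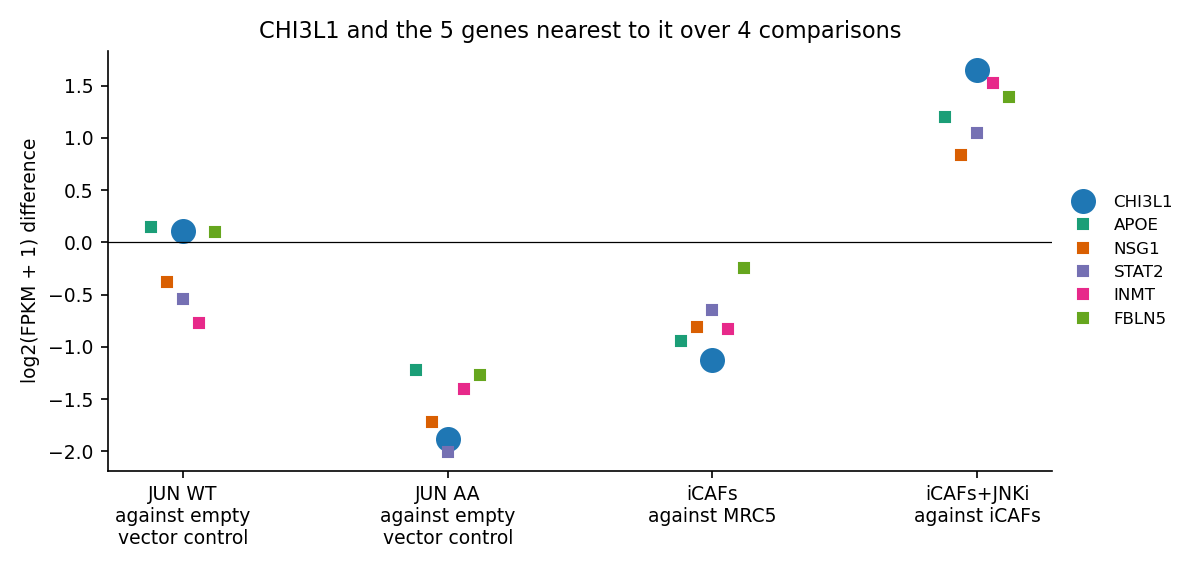
Differences in log2(FPKM + 1) of CHI3L1 (large blue points) and of the 5 genes nearest to it (squares, set side by side for legibility) in 4 comparisons, 1 library against 1. The squares lie with CHI3L1 below 0 in JUN AA against control and in iCAFs against MRC5, and above 0 in iCAFs+JNKi against iCAFs. The 5 genes were chosen by their nearness to CHI3L1 in these 4 comparisons, so this likeness follows in large part from the choice.

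No neighbour of the members on the chromosome reached a 2-fold difference on the log2(FPKM + 1) scale in iCAFs+JNKi against iCAFs. Within 100000 bp of CHI3L1, MYBPH was at most at 0.462 FPKM, and MYOG was listed at 0 in all 6 libraries. ADORA1, an adenosine receptor, was between 1.12 and 1.59 FPKM in the JNKi table and between 0.659 and 1.32 FPKM in the other. ADORA1 had 1.12 FPKM in iCAFs against 1.58 FPKM with the inhibitor. Near CHI3L2, DENND2D, whose annotated span overlaps the longest CHI3L2 transcript, had 0.590 FPKM in iCAFs against 0.323 FPKM with the inhibitor. CEPT1, an enzyme of phospholipid synthesis, had 10.8 and 13.3 FPKM in these libraries, and DRAM2, an autophagy regulator, 11 FPKM in both.

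The inhibitor acts upstream of AP-1, so the 250 bases before each canonical start were searched for motifs. The rise of CHI3L2 in iCAFs+JNKi chose that gene, so it is not read as shared regulation of the members. Sequences are from GRCh37, 5′ to 3′ on the strand of the gene, ending at the base before the start. Capitals mark every match other than an E-box. RefSeq promoters, which are on GRCh38, held the same 250 bases in the 1 entry of CHI3L1 and in 1 of 2 entries of CHI3L2. The other CHI3L2 entry overlapped this window without being identical to it.
CHI3L1, chr1:203155833-203156082, minus strand: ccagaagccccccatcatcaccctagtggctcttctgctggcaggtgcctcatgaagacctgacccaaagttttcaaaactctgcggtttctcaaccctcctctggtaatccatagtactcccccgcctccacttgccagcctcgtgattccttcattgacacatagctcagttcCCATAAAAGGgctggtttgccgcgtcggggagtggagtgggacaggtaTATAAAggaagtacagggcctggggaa
CHI3L2, chr1:111770085-111770334, plus strand: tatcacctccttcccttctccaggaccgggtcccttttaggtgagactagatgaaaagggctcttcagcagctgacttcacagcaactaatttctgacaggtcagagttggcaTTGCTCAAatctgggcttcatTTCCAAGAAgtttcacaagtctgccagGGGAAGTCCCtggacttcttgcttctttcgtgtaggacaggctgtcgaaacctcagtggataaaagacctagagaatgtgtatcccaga
In CHI3L1 the capitals are a CArG box, the motif bound by serum response factor, from -75 to -66 and a TATA box (TATAAA) from -27 to -22. In CHI3L2 they are a C/EBP match (TTGCNNAA) from -137 to -130, a STAT match (TTCNNNGAA) from -116 to -108 and an NF-κB match from -89 to -80. Both strands were searched, and no match overlapped another. Of 19855 promoters of protein-coding genes of this length, 1.12% held a CArG box, 9.26% TATAAA, 7.12% the C/EBP match, 5.68% the STAT match and 11.3% the NF-κB match. The E-box (CANNTG), in 56.7% of promoters, had 2 copies in CHI3L1 and 1 copy in CHI3L2. The members thus shared no motif other than the E-box among those searched. Neither window held the AP-1 motif (TGANTCA), found in 4.70% of promoters, the CRE (TGACGTCA), in 2.40%, or the GC box (GGGCGG), in 59.2%. These are matches of letters and not sites shown to be bound. The nearest AP-1 heptamer to CHI3L1 was TGACTCA at 256 bp upstream of its start, from 203156088 to 203156094, and 5.03% of 19869 protein-coding starts had one as near. The nearest to CHI3L2 was TGAGTCA at 921 bp downstream, from 111771256 to 111771262, and 18.6% of starts had one as near.

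**Figure D5:**
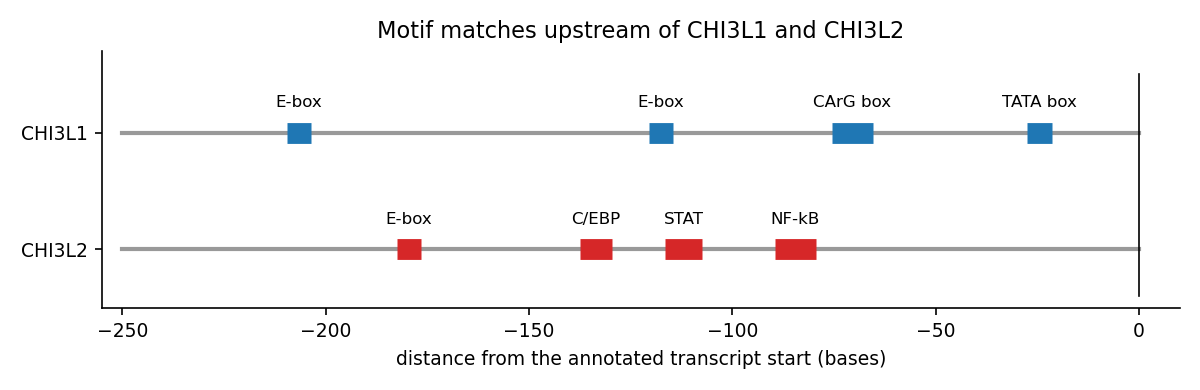
Positions of motif matches in the 250 bases before the annotated start of CHI3L1 (blue) and CHI3L2 (red), in bases from the start at 0. CHI3L1 has 2 E-boxes, a CArG box and a TATA box, and CHI3L2 an E-box and C/EBP, STAT and NF-κB matches.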

How the data were processed

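MRC5 RNA was sequenced in 6 libraries, 1 per condition. The authors mapped reads to hg19 with HISAT2 2.1.0 and deposited FPKM per gene from StringTie 2.1.1. The annotation, strand setting and depth are not given in the sources used here. FPKM keep no depth, so no interval or detection limit can be given. Each table has 25370 rows, and of rows sharing a symbol the one with the highest mean was kept. Differences of log2(FPKM + 1) were computed in Python 3.11.15 (numpy 2.4.6, pandas 2.3.3), keeping genes whose mean reached 1 FPKM, and this code was tested on simulated data. With 1 library per condition no test was made. The members and gene lists were chosen with earlier results of these data known. Genes are named where they are members, GH18 genes, the largest difference of a list in either direction, the 5 nearest in pattern or within 100000 bp of a member, and others in the text were chosen after their values were seen. Gene models and sequences come from GRCh37 (hg19) with GENCODE annotation, read with pysam 0.24.0, and coding sequences were aligned with biopython 1.88. Alternatives were a pseudocount of 0.1, FPKM rescaled to 1000000, centring on the median gene and filters of 0 and 5 FPKM. Figures were drawn with matplotlib 3.10.9.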

Additional observations from a re-analysis of the deposited data

How the results depend on the processing

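Of the 8 log2 differences given for a member, 7 kept their direction with a pseudocount of 0.1, with rescaled FPKM and with centring on the median gene. The exception was the small CHI3L1 difference of 0.11 in JUN WT against control, which was -0.036 with centring. Sizes depended on the scale. A value was taken to have moved at 0.25 on the log2 scale, a limit chosen because there are no replicates. With a pseudocount of 0.1, the CHI3L1 difference was -1.67 in iCAFs against MRC5, 2.31 in iCAFs+JNKi against iCAFs, -3.65 in JUN AA against control and 3.79 in JUN WT against JUN AA, and the CHI3L2 difference was 4.63 in iCAFs+JNKi against iCAFs. With rescaled FPKM these were -1.42, 2.15, -2.59, 2.71 and 4.36. Both settings lower the pseudocount relative to the values. Centring moved none of the 8 differences by that limit. No alternative was computed for CHI3L2 against a listed 0.

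Counts of 2-fold genes ranged, over the alternatives, from 436 to 1229 higher and 258 to 527 lower in JUN WT against control (main counts 714 and 350), from 338 to 802 and 266 to 957 in JUN AA against control (545 and 389), and from 411 to 1770 and 364 to 822 in JUN WT against JUN AA (686 and 578). They ranged from 167 to 318 and 128 to 356 in iCAFs against MRC5 (228 and 202), from 169 to 411 and 147 to 386 in iCAFs+JNKi against iCAFs (265 and 232), and from 266 to 581 and 263 to 706 in iCAFs+JNKi against MRC5 (386 and 416). Scaling turned the balance of higher and lower genes in 4 of the 6 comparisons, and moved the higher share by over 10 percentage points in iCAFs+JNKi against iCAFs, as given with each comparison. The receptor list's median of 0.81 in JUN WT against control was -0.033 with no filter and 0.36 at a mean of at least 5 FPKM. No paired analysis was possible because each condition has 1 library.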

Other observations

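Chondrocyte genes, a list of 16, were looked at because both members are known products of these cells. ACAN and CNMD (listed as LECT1) were listed at 0 in all 6 libraries, and COL2A1 and COL9A1 in all 3 libraries of the JNKi table. Of the list, 5 genes passed the filter in the JNKi table and 1 in the JUN overexpression table. SOX9, the transcription factor of cartilage, had 26.6, 22.6 and 20.4 FPKM in MRC5, iCAFs and iCAFs+JNKi. SOX6, which had the highest log2 difference of the list in iCAFs+JNKi against iCAFs, had 0.655 FPKM in iCAFs against 2.15 FPKM with the inhibitor. None of the 5 had a 2-fold difference in that comparison, and their median was 0.030, beside -0.099 over all genes.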
